A study of Mus musculus with 32 samples.

Results

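The 35 genes described here belong to the oligodendrocyte and its myelin sheath. They were taken by name from a list and sorted into 14 structural myelin genes, 4 genes of myelin lipid synthesis, 3 of lipid signalling or transport, 5 lineage transcription factors and 9 other genes of the cell type. This list, the classes and the lists of other genes used below were chosen with earlier results of these data known. All 35 were found among the 23958 genes of the count table, and 33 passed the filter on low counts among 12651 genes tested. Gjb1, a gap junction subunit, and Nkx6-2, a homeodomain factor of the oligodendrocyte lineage, did not pass: Gjb1 had 0 to 20 counts per mouse (median 2) and Nkx6-2 had 0 to 32 (median 4).

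Oligodendrocytes wrap axons in a compacted, lipid-rich membrane that insulates them and speeds the action potential. Precursor cells leave the cell cycle and switch on a common programme of membrane proteins, glycolipid enzymes and adhesion molecules under the control of factors such as Sox10, Olig2 and Myrf. In the cortex, myelin is sparse in the superficial layers and dense in the deep layers and in the underlying white matter, and myelination goes on long after birth.

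RNA came from the frontal cortex (infralimbic and prelimbic areas) of 32 mice inoculated with gut microbiota of human (12 mice), squirrel monkey (8 mice) or macaque (12 mice) donors; the sources used here give no strain, age, sex or housing, and no uninoculated group was analysed here. Each of 6 batches held mice of 1 donor species: batches A (4 mice) and B (8) belong to the human group, batches C (4) and D (4) to the squirrel monkey group, and batches E (5) and F (7) to the macaque group. Each plate column of the libraries also held mice of 1 donor species. Differences between donor species therefore cannot be told apart from differences between batches or plate columns. The labels do not say whether mice of a batch shared a donor or a cage. The p-values set a group difference against the spread between mice and take each mouse as independent. They may be too small if mice of a batch are not independent. Mice are named below by donor and replicate number, as in human 12.

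Libraries held 1035036 to 2089308 counts. Tag sequencing reads the 3′ ends of transcripts, so levels are given as CPM (counts per library, scaled to the same total) and are compared between mice for 1 gene, not between genes. Of 160 pairs of mice with the same donor species, 0 held identical counts. Among 15 lists of other genes, those of mature and precursor oligodendrocytes had 24 of 30 and 8 of 10 genes past the filter. Schwann cells, the myelinating cells of peripheral nerve, had 3 of 6. In bulk tissue, fewer cells of a type and less RNA per cell cannot be told apart.

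Upstream sequences of 24 of the 35 genes were at hand in RefSeq (GRCm38.p6). The 250 bases before the start are shown for 4 of the genes that were higher in the human group below, in transcript orientation, with matches to short strings of 2 factors of the lineage in capitals. The strings searched on both strands were ACAAAG and ACAATG for SOX factors, CTGGCAC and CTGGTAC for MYRF, and CAGCTG as an E-box; none overlaps another in these windows. Mog lies at chr17:37023399-37023648 on the minus strand, Tmem63a at chr1:180942268-180942517 on the plus strand, Tmem88b at chr4:155785875-155786124 on the minus strand, and Gjc3 at chr5:137963099-137963348 on the minus strand.
Mog: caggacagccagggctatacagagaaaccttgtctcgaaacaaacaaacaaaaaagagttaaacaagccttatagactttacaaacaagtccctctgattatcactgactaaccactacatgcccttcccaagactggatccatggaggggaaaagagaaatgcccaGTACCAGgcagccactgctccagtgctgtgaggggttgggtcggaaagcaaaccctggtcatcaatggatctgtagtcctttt
Tmem63a: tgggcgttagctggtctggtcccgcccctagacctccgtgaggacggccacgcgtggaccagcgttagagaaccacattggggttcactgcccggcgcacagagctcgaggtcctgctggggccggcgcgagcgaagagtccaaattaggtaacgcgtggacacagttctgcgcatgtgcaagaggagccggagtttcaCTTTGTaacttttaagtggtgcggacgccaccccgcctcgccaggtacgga
Tmem88b: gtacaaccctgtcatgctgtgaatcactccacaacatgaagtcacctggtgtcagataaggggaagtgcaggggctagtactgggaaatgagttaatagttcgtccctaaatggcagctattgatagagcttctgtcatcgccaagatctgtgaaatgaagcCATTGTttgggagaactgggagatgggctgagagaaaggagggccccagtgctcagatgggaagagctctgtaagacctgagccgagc
Gjc3: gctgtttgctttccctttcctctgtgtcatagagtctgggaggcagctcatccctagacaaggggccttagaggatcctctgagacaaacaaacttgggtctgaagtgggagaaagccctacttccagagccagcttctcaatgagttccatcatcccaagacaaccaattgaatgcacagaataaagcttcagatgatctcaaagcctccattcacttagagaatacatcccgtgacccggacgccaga
The Mog window held a MYRF string on the opposite strand, and the Tmem63a and Tmem88b windows held a SOX string each, also on the opposite strand. The Gjc3 window held none of these strings, and neither did the windows of Mal and Cldn11. Over all start sites of the 24 genes, 16 of 35 windows (45.7%) held a SOX string, against 25.2% of 32851 windows of all genes. A MYRF string stood in 5 windows (14.3%, against 5.93%) and the E-box in 3 (8.57%, against 13.001%). A match is a string in the window and does not show that a factor binds there.

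These genes differed widely between single mice. Their summed share of all counts ran from 0.118% to 1.23% per mouse. The median was 0.188% in the human group, 0.242% in the squirrel monkey group and 0.151% in the macaque group. Human 12 had the highest level of the 32 mice for 34 of the 35 genes; for Gjb1 it was human 1. The same mice recurred at the top of most genes: human 12 and human 1 were among the 6 highest for 35 genes, squirrel monkey 8 for 34, human 4 for 33, squirrel monkey 1 for 32 and macaque 6 for 31. On the mean over the 33 genes (log2 CPM minus each gene's mean), these 6 mice stood at 2.28, 1.56, 1.30, 1.29, 1.18 and 0.89, and the next mouse, human 7, at 0.44. The mice with high levels came from all 3 donor groups and from batches A, B, C, D and F, and batch E held none of them.

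**Figure D1:**
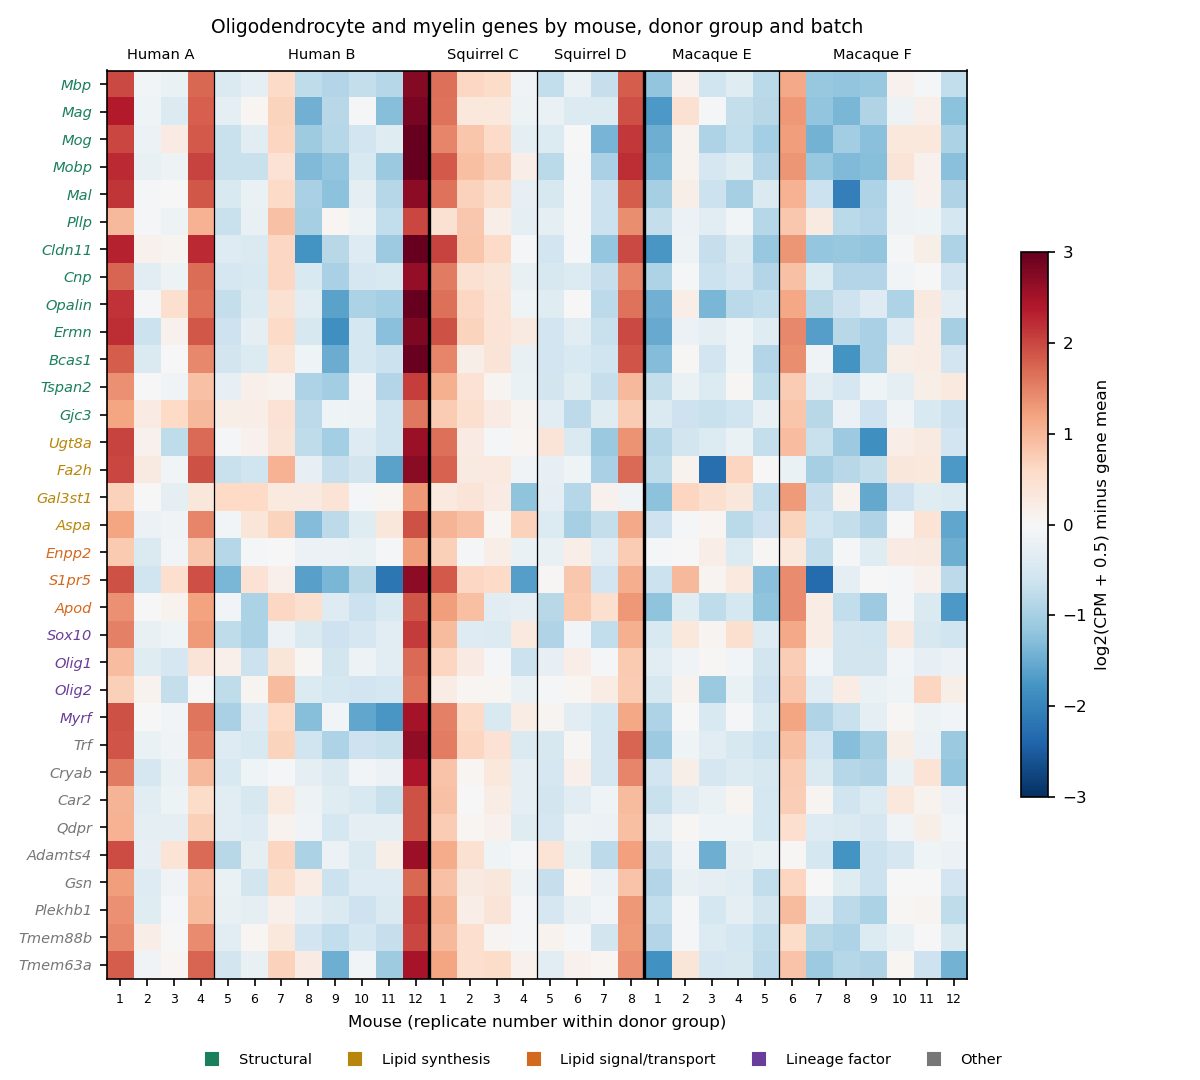
Levels of the 33 genes (rows, coloured by class) in the 32 mice (columns, ordered by donor group and batch), as log2(CPM + 0.5) minus the gene's mean over mice. The columns of human 1, 4 and 12, squirrel monkey 1 and 8 and macaque 6 are red over nearly all rows, and the colours are paler in the lineage factors Olig1 and Olig2.

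Mbp, the basic protein that holds the cytoplasmic faces of compact myelin together, shows the range. Its lowest, median and highest level was 294, 452 and 3643 CPM in the human group, 323, 643 and 1895 in the squirrel monkey group, and 236, 337 and 1173 in the macaque group. The groups overlapped, and 8 of 12 human and 6 of 8 squirrel monkey mice were above the macaque median. The ratio of the highest to the lowest mouse was 30.2 for Cldn11, 27.4 for Mog and 15.4 for Mbp, and it was smallest, 5.11, for Olig1. Across the 32 mice, with group means removed, log10 of total counts had a Pearson r of -0.18 with the mean over the genes.

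The spread was high against that of other genes. The biological coefficient of variation, the spread between mice of a group beyond counting error, had a median of 0.122 over the 12651 genes and of 0.526 over the 33 genes (range 0.287 to 0.732). All 33 were among the 1266 genes of highest spread. Mobp, a basic protein of compact myelin, ranked 8 from the top, S1pr5, a receptor for sphingosine-1-phosphate, 9, and Cldn11, which forms the tight junctions between myelin layers, 10.

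**Figure D2:**
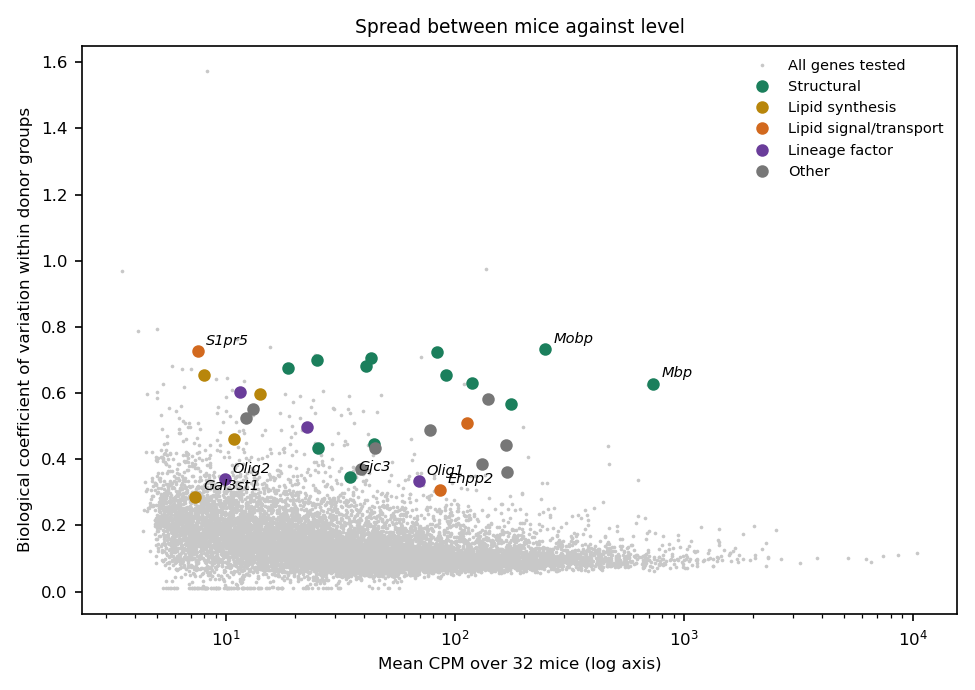
Biological coefficient of variation within donor groups against mean CPM over the 32 mice (log axis) for the 12651 genes tested (grey) and the 33 oligodendrocyte genes (coloured by class). The coloured points lie between 0.287 and 0.732 at every level, above most of the grey points, whose median is 0.122.

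Structural, lipid and lineage genes varied together over mice, with different amplitudes and not equally closely. With group means removed, the 528 pairs of genes had a median Pearson r of 0.848 over 32 mice, and 509 pairs were above 0.5; the values of a mouse share its library and its scaling. The highest pair was Mbp with Mobp (0.989) and the lowest Adamts4 with Gal3st1 (0.272). Within classes the median r was 0.92 for structural genes, 0.59 for lipid synthesis and 0.64 for lipid signalling and transport. It was 0.73 for lineage factors and 0.90 for the other genes. Set against the mean of the other genes, the slope had a median of 1.31 for the structural genes, 0.96 for lipid synthesis and 0.74 for the lineage factors. A slope above 1 means that the gene varied more than the others on the log2 scale.

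The steepest structural slopes were those of Mobp (1.56), Cldn11 (1.53) and Mog (1.43), a protein of the outermost myelin surface. The connexin gene Gjc3 (0.63) was the shallowest of this class. Among the lipid synthesis genes, Ugt8a, which makes the myelin lipid galactosylceramide, and Fa2h, which hydroxylates its fatty acid, had slopes of 1.10 each. Gal3st1, which sulfates that lipid to sulfatide, had the lowest slope of the 33 (0.37) and the lowest correlation with the others (0.52), and its counts were low (3 to 27 per mouse).

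The slopes of the lineage factors fell from Myrf to Olig2. Myrf, which switches on myelin genes in cells that have stopped dividing, had a slope of 1.10, on 3 to 83 counts per mouse. Sox10, present throughout the lineage, had 0.90, and Olig1 and Olig2, which are also expressed by precursors, had 0.58 and 0.52. Within donor groups, the median SD of log2 CPM was 1.03 for the structural genes, 0.82 for lipid synthesis and 0.65 for the lineage factors.

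The question put by the design is whether frontal cortex RNA differs with the donor species of the microbiota. Between the human and macaque groups, 8 of the 33 genes were higher and 0 lower at an adjusted p below 0.05, where 4.47% of all genes tested were called higher, 3.54% lower and 8.01% in either direction. All 33 fold changes were positive, with a median of 0.90 on the log2 scale against -0.001 over all genes, and 26 had an unadjusted p below 0.05, as did 2918 of the 12651 genes. The share called was 4 of 13 for the structural genes, 0 of 4 for lipid synthesis, 0 of 3 for lipid signalling and transport, 0 of 4 for the lineage factors and 4 of 9 for the others. Median fold changes were 1.20, 1.05, 0.82, 0.41 and 0.85 in these classes; differences between classes were not tested. Fold changes below are log2 with the standard error (SE), and adjusted p-values are from edgeR's quasi-likelihood test.

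The number of calls changed with the mice included. Without the 6 mice named above, 3 of them human, 2 squirrel monkey and 1 macaque, 1 of the 33 genes was higher (Gjc3) against 6.36% of all genes called in either direction, 26 fold changes were positive, and the median was 0.23. These 6 mice were picked by their level of the same genes and 3 are in the human group, so the choice itself bears on this difference, and the values without them, here and below, are descriptions. Leaving out 1 mouse at a time gave from 2 genes (without human 1, human 4 or human 12) to 21 (without macaque 6). In 18 of the 32 fits the count moved by over 1.5 times. The share of all genes called was not recorded for these fits. The range was 2 to 15 without 1 human, 6 to 10 without 1 squirrel monkey and 3 to 21 without 1 macaque group mouse. The calls of Gjc3 and Adamts4 held in each of these 32 fits.

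Gjc3 encodes connexin 29, a channel protein of the innermost myelin membrane facing the axon. Its lowest, median and highest level was 18.03, 36.6 and 94.2 CPM in the human group, 17.9, 35.02 and 54.0 in the squirrel monkey group, and 17.3, 21.7 and 56.5 in the macaque group. The lowest mice of the 3 groups were alike; 10 of 12 human mice were above the macaque median, and 3 were above the highest macaque mouse, macaque 6. The human group was higher than the macaque group by 0.81 (SE 0.22, adjusted p = 0.0181). Without the 6 highest mice the difference was 0.55 (SE 0.16, adjusted p = 0.0264).

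Adamts4, a secreted protease that in the brain is made by mature oligodendrocytes, ran from 4.67 through 9.50 to 58.4 CPM in the human group, from 5.29 through 10.9 to 22.9 in the squirrel monkey group, and from 2.36 through 7.15 to 9.73 in the macaque group. Here 6 of 12 human and 4 of 8 squirrel monkey mice were above every macaque mouse. Macaque 6, which was high for most of the genes, stood at 9.73 CPM, little above the other macaque mice. The human group was higher by 1.37 (SE 0.36, adjusted p = 0.0142). Adamts4 was also the 1 gene of the 33 past the threshold in the F-test over the 3 groups (adjusted p = 0.0432, where 6.15% of all genes passed). Its exons overlap those of another gene on the opposite strand, and since the use of strand in counting is not given, reads of the 2 genes cannot be told apart. Without the 6 highest mice its difference was 0.46 (adjusted p = 0.249).

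Tmem63a, a mechanically gated ion channel, ran from 3.33 through 10.1 to 57.8 CPM in the human group, from 7.98 through 12.8 to 27.0 in the squirrel monkey group and from 2.51 through 6.04 to 18.5 in the macaque group. All 8 squirrel monkey mice and 10 of 12 human mice were above the macaque median, and the ranges overlapped. The human group was higher by 1.31 (SE 0.37, adjusted p = 0.0232); the call was lost without human 1, human 4 or human 12 (adjusted p up to 0.0604). Its exons overlap those of 2210411M09Rik on the opposite strand.

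Tmem88b, a transmembrane protein gene of mature oligodendrocytes, ran from 22.8 through 39.0 to 155 CPM in the human group, from 25.8 through 40.7 to 93.8 in the squirrel monkey group and from 20.02 through 28.4 to 56.5 in the macaque group. The groups overlapped over most of their range, and 3 human and 2 squirrel monkey mice were above every macaque mouse. The human group was higher by 0.91 (SE 0.28, adjusted p = 0.0364).

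Among the structural genes, Cldn11 ran from 15.4 through 49.4 to 464 CPM in the human group, from 23.8 through 66.5 to 222 in the squirrel monkey group and from 15.7 through 30.8 to 136 in the macaque group. The lowest human mouse was below the lowest macaque mouse, and 3 human and 2 squirrel monkey mice were above every macaque mouse. The difference was 1.502 (SE 0.47, adjusted p = 0.0386), the largest fold change of the 33 genes.

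Mal, a lipid-raft protein of compact myelin, ran from 36.6 through 79.3 to 553 CPM in the human group, from 54.8 through 101 to 307 in the squirrel monkey group and from 20.6 through 54.9 to 177 in the macaque group. Its ranges overlapped, with 9 of 12 human and 7 of 8 squirrel monkey mice above the macaque median. The human group was higher by 1.25 (SE 0.40, adjusted p = 0.0450).

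Mog ran from 13.4 through 23.7 to 275 CPM in the human group, from 10.6 through 35.3 to 125 in the squirrel monkey group and from 10.03 through 14.6 to 69.1 in the macaque group. Of the human mice, 11 of 12 were above the macaque median and 3 above the highest macaque mouse. The difference was 1.43 (SE 0.46, adjusted p = 0.0481).

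Trf encodes transferrin, the iron carrier that oligodendrocytes make in the brain. It ran from 55.5 through 86.8 to 668 CPM in the human group, from 74.0 through 126 to 355 in the squirrel monkey group and from 43.0 through 73.5 to 200 in the macaque group (199.5 CPM in macaque 6). All 8 squirrel monkey mice and 8 of 12 human mice were above the macaque median. The human group was higher by 1.13 (SE 0.37, adjusted p = 0.0489). The last 300 bases of a Trf transcript matched 16 other genes, so its count is uncertain. Mog and Trf, close to the threshold, each lost the call in 18 of the 32 fits that left out 1 mouse; Mal lost it in 13, Cldn11 in 11 and Tmem88b in 10.

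**Figure D3:**
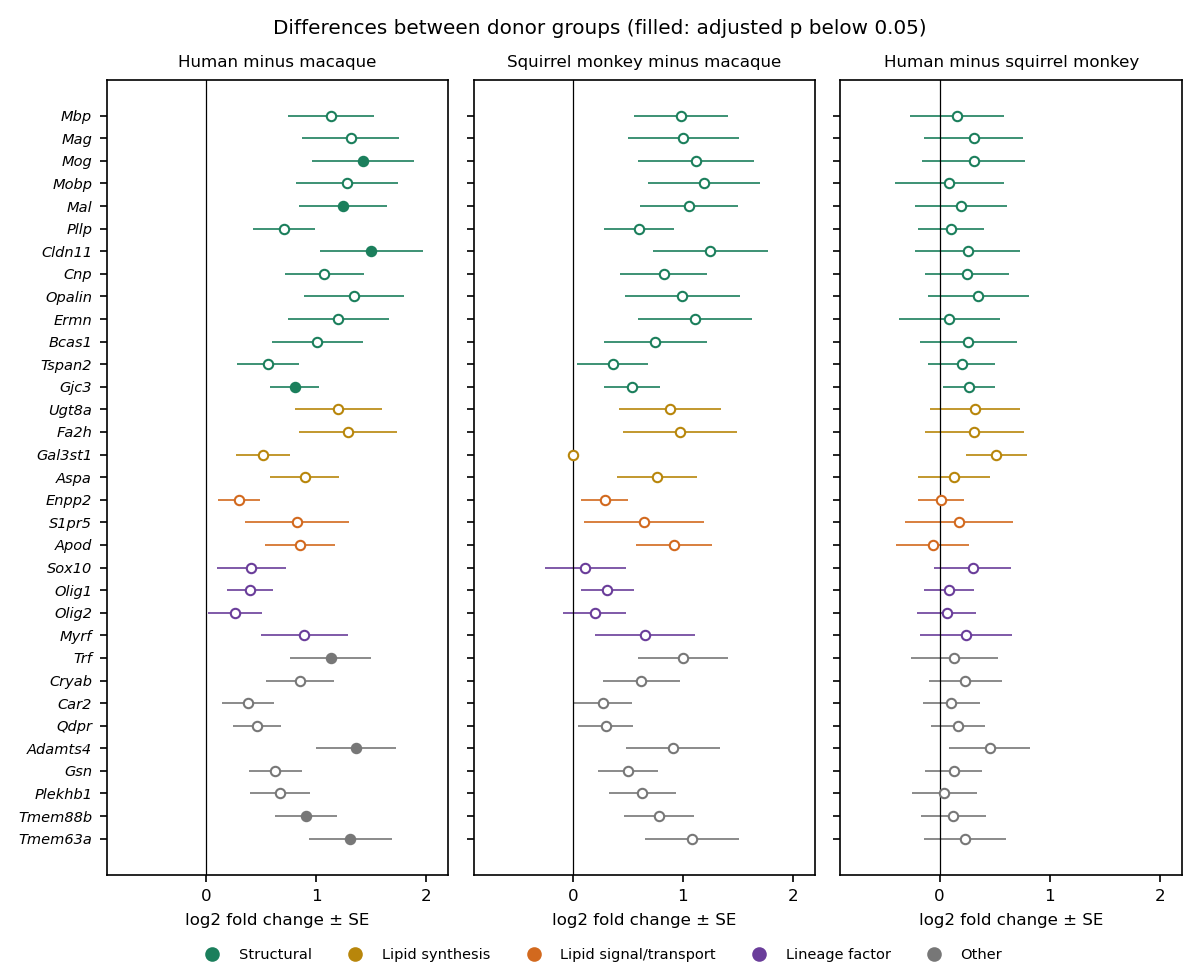
Fold changes of the 33 genes (log2, points) with their SE (bars) in the 3 comparisons of donor groups, coloured by class; filled points passed an adjusted p of 0.05. The 8 filled points are in the comparison of human with macaque, and the fold changes of human against squirrel monkey have the median nearest to 0 (0.19); Gal3st1 in the middle panel has no SE because its difference is about 0.

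Several abundant myelin genes did not pass. Mbp was at 1.14 (SE 0.39, adjusted p = 0.0632). Mobp was at 1.28 (SE 0.46, adjusted p = 0.0787), with 64.8, 129 and 1399 CPM in the lowest, median and highest human mouse and 62.7, 101 and 408 in the macaque mice. Cnp, whose enzyme keeps the cytoplasmic channels of myelin open, was at 1.08 (SE 0.36, adjusted p = 0.0519). Its exons overlap those of Dnajc7 on the opposite strand. Mag, the adhesion molecule of the inner myelin membrane that binds the axon, had an adjusted p of 0.0561, and Opalin, a membrane protein of mature oligodendrocytes, 0.0574.

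The remaining structural genes were Ermn (1.20), which organises actin in late oligodendrocytes, Bcas1 (1.01), Pllp (0.71), a raft protein, and Tspan2 (0.56), a tetraspanin, with adjusted p-values from 0.0981 to 0.224. Gjb1, not tested, ran from 0.507 to 12.1 CPM in the human group, from 0 to 8.97 in the squirrel monkey group and from 0.627 to 5.84 in the macaque group.

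Of the lipid synthesis genes, Ugt8a came closest to the threshold, at 1.20 (SE 0.40, adjusted p = 0.0534). Its lowest, median and highest levels were 4.995, 10.9 and 66.6 CPM in the human group, 4.63, 11.8 and 34.2 in the squirrel monkey group and 2.60, 6.96 and 20.4 in the macaque group. The groups overlapped, and 3 human and 2 squirrel monkey mice were above every macaque mouse. Fa2h was at 1.29 (SE 0.44, adjusted p = 0.0648) and Aspa, which frees acetate from N-acetylaspartate for lipid synthesis, at 0.90 (SE 0.32, adjusted p = 0.0711). Gal3st1 was at 0.51 (adjusted p = 0.197), although all 12 human mice were above its macaque median.

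Lipid signalling and transport genes did not pass either. Apod, an apolipoprotein secreted by glia, was at 0.85 (SE 0.31, adjusted p = 0.0839). S1pr5 was at 0.82 (SE 0.47, adjusted p = 0.303), and its counts ran from 1 to 57 per mouse. Enpp2, which makes the signalling lipid lysophosphatidic acid, was at 0.30 (SE 0.19, adjusted p = 0.357), and its level exceeded the macaque median in 4 of 12 human mice.

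The lineage factors had the smallest median fold change of the 5 classes. Sox10 ran from 9.63 through 15.8 to 82.9 CPM in the human group, from 9.98 through 16.2 to 40.5 in the squirrel monkey group and from 12.3 through 17.3 to 42.8 in the macaque group. The macaque group had the highest median and the highest minimum of Sox10, while the fitted mean was higher in the human group by 0.41 (SE 0.32, adjusted p = 0.465). Without the 6 highest mice the Sox10 difference was -0.32 (adjusted p = 0.285). Olig2 ran from 5.08 through 7.83 to 28.9 CPM in the human group, from 7.77 through 9.45 to 15.5 in the squirrel monkey group and from 3.89 through 7.97 to 16.5 in the macaque group, with medians of the human and macaque groups close together (difference 0.26, SE 0.25, adjusted p = 0.574). Olig1 was at 0.40 (SE 0.21, adjusted p = 0.250) and Myrf at 0.89 (SE 0.40, adjusted p = 0.162). Nkx6-2, not tested, ran from 0.668 to 20.1 CPM in the human group and from 0 to 4.996 in the macaque group.

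Of the other genes, Qdpr, an enzyme that regenerates tetrahydrobiopterin, was at 0.46 (SE 0.22, adjusted p = 0.194). Plekhb1 was at 0.68 (SE 0.27, adjusted p = 0.118). Cryab, a small heat shock protein (0.85), Gsn, which severs actin filaments (0.63), and Car2, a carbonic anhydrase (0.38), had adjusted p-values from 0.0794 to 0.345.

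**Figure D4:**
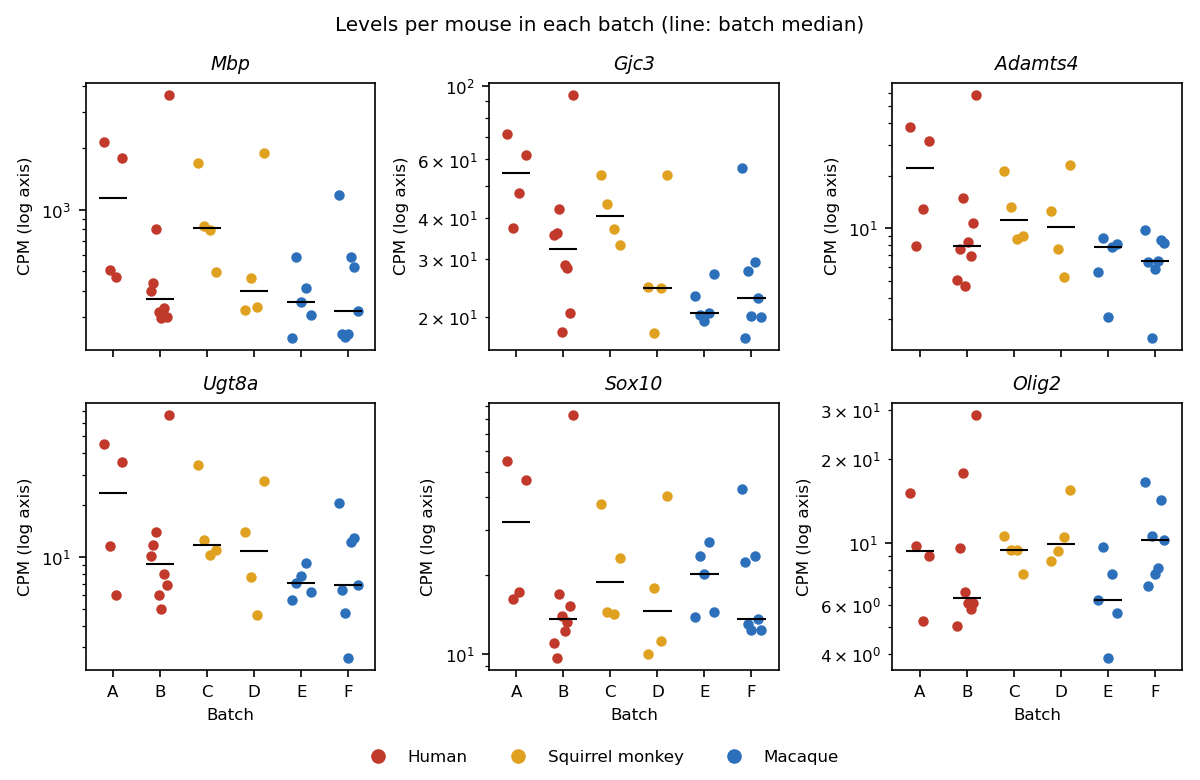
CPM per mouse (log axis) of 6 genes in each batch, coloured by donor group, with a line at the batch median. In Mbp the highest mice of batches A to D and F stand apart from the rest, while in Adamts4 the macaque batches E and F reach at most 9.73 CPM and in Sox10 and Olig2 the batch medians overlap across donor groups.

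Between the squirrel monkey and macaque groups, 0 of the 33 genes passed, where 0.64% of all genes did (0.387% higher, 0.253% lower). The fold changes were positive for 32 of the 33, with a median of 0.76 against 0.001 over all genes, and 15 had an unadjusted p below 0.05, as did 1667 of the 12651 genes. DESeq2 also called 0 of the genes, and limma voom with sample weights called 1. Apod had the smallest adjusted p of the 33 (0.92, SE 0.35, adjusted p = 0.227), with 144 CPM as the median in the squirrel monkey group and 59.2 in the macaque group. The structural genes had a median fold change of 0.996 and the lineage factors of 0.26. This comparison shares the macaque mice with the one above. Without the 6 highest mice, 32 fold changes were still positive, the median was 0.42 and 0 genes passed.

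Between the human and squirrel monkey groups, 0 of the 33 genes passed, where 0.134% of all genes did (0.0158% higher, 0.119% lower), and 0 had an unadjusted p below 0.05. The median fold change was 0.19 with 32 positive, and the smallest adjusted p was 0.552 (Gal3st1, 0.51 higher in the human group). The sign of this median depended on single mice: it was -0.16 without human 12 and 0.41 without squirrel monkey 8. Without the 6 highest mice, 31 of the 33 fold changes were negative and the median was -0.17. DESeq2 called 0 of them and gave no adjusted p for 19.

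Fold changes between batches of 1 donor species were mostly of 1 sign. However, 0 of the 33 genes passed in any of the 3 batch comparisons, and 0 had an unadjusted p below 0.05. For batch B against A, 30 fold changes were negative with a median of -0.50 (0.0237% of all genes called). For D against C, 29 were negative with a median of -0.16, and for F against E, 27 were positive with a median of 0.27 (0% of all genes called in each). The median share of counts in the 35 genes was 0.418% in batch A, 0.163% in B, 0.295% in C, 0.183% in D, 0.157% in E and 0.146% in F. The order of the medians was A, C, D, B, E, F, and the ranges of all 6 batches overlapped one another.

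The count of 8 genes changed with the batches included. It was 0 without batch A, E or F, and 21 without B. The counts without C and D are given in the last section. Leaving out a batch takes mice from the test of every gene, and the share of all genes called in these fits was not recorded. These counts therefore do not show whether the calls of these genes changed more than those of other genes. In Gjc3 the batch medians were 54.6 and 32.2 CPM in A and B, 40.5 and 24.5 in C and D, and 20.5 and 22.8 in E and F. In Adamts4 they were 22.3 and 7.96 in A and B, 11.1 and 10.1 in C and D, and 7.78 and 6.52 in E and F. For both genes every human and squirrel monkey batch had a higher median than either macaque batch. In Adamts4 this order rests on the small gap between 7.96 CPM in B and 7.78 in E. The same order held in Mbp and Mag, which were not called, and it failed in Trf, which was called. The order therefore does not set Gjc3 and Adamts4 apart from the other genes.

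Other genes of mature oligodendrocytes behaved like the 33. The mean over 24 further mature oligodendrocyte genes had a Pearson r of 0.976 over 32 mice with the mean over the 33 genes (group means removed; 0.961 without human 1 and human 12). In human against macaque, 7 of the 24 were higher and 0 lower, with a median of 0.49, where 4.47% of all genes were called higher and 3.54% lower. Tubb4a, a tubulin of myelinating cells, was at 0.36 (adjusted p = 0.00222), Dbndd2 at 0.69 (0.00505), Lgi3, a secreted protein, at 0.49 (0.0191) and Jam3, a junctional adhesion molecule, at 0.35 (0.0206). These fold changes were smaller than those of most structural myelin genes.

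Earlier stages followed the mature genes less closely. For 7 genes of differentiating oligodendrocytes the r was 0.754 (0.655 without those 2 mice), and 0 passed in human against macaque; the unadjusted p was below 0.05 for 2 of them. Within this list Enpp6, a choline phosphodiesterase of newly formed oligodendrocytes, had an r of 0.830 and a fold change of 0.92 (adjusted p = 0.0789). Fyn, a kinase also used by neurons, had an r of 0.077. Gene by gene, the median r was 0.24 in this list, 0.30 in the precursor list and 0.75 in the mature list. Single differentiating genes therefore did not follow the mature genes more closely than precursor genes did. For 8 precursor genes the r was 0.522 (0.387), the slope was 0.11 against 0.56 for the mature list, and the median fold change was -0.02 with 0 passing and 0 at an unadjusted p below 0.05. Pdgfra, the growth factor receptor that marks precursors, had an r of 0.28 and a fold change of -0.02. The summed precursor level ran from 384 to 519 CPM in the human group, from 399 to 491 in the squirrel monkey group and from 391 to 473 in the macaque group, so the groups overlapped nearly throughout.

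Genes of cholesterol synthesis, which supplies the sterol of the myelin membrane, had an r of 0.492 over 17 genes (0.306 without the same 2 mice), and 0 passed in human against macaque, with 3 at an unadjusted p below 0.05. For the mean over 12 genes of the axonal node and paranode the r was -0.15. Gene by gene, 3 of the 12 had a positive r, the median was -0.40 and the lowest -0.59. One of the 12 passed, Cntn2, a contactin of the juxtaparanode made by neurons and oligodendrocytes (0.51, adjusted p = 0.0475, r 0.82). The other node genes with the smallest p were Ank3 (0.19), Nrcam (-0.09) and Cntn1 (-0.09), which did not pass.

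Markers of other cells moved with the 33 genes over mice. Upper cortical layer genes (10 of 10 measured) had an r of -0.76 (-0.64 without human 1 and human 12), astrocyte genes (9 of 9) 0.60 (0.48) and meningeal fibroblast genes (8 of 8) 0.56 (0.48). The summed upper layer level ran from 1641 to 2913 CPM in the human group, from 1880 to 2713 in the squirrel monkey group and from 2371 to 3251 in the macaque group. Summed astrocyte markers ran from 2964 to 4414, 2771 to 4194 and 3193 to 4348 CPM in the same order, and summed meningeal markers from 311 to 1108, 306 to 949 and 226 to 1008. In human against macaque, 1 upper layer gene was higher (Lamp5, 0.49) and 1 lower, with a median of -0.22 over the list, 1 of 8 meningeal genes was higher (median 0.38) and 0 of 9 astrocyte genes passed (median 0.06, 2 at an unadjusted p below 0.05). In squirrel monkey against macaque, 0 of 10 upper layer genes passed, but 8 fold changes were negative, 8 genes had an unadjusted p below 0.05 and the median was -0.33. All 10 deep layer fold changes were positive there (median 0.28, 0 passing, 4 at an unadjusted p below 0.05), and 1 meningeal gene was higher (median 0.37). None of these marker genes had 0 counts over all mice. Lists for neurons (r -0.11), deep layers (0.31), striatum (0.15), microglia (0.24), endothelium (0.36), choroid plexus (0.10) and Schwann cells (0.20) followed the genes less. For striatum the correlation on ranks (Spearman) was 0.42. Human 7 stood at 889 CPM of summed striatum genes and the next mouse, macaque 12, at 346. Choroid plexus rests on 2 of 6 genes and Schwann cells on 3 of 6, of which Pmp22 had an r of 0.84. The part of any of these lists in the levels of the oligodendrocyte genes was not tested.

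**Figure D5:**
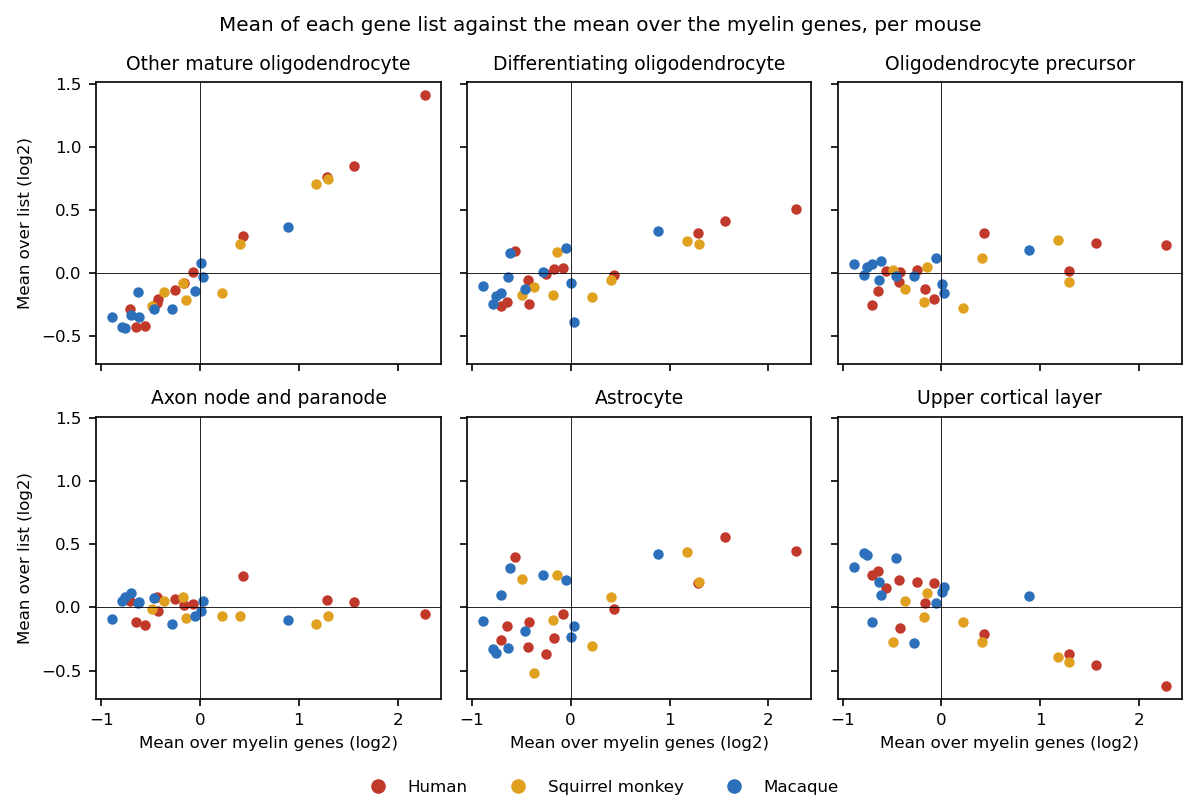
Mean of 6 gene lists (vertical axis) against the mean over the 33 oligodendrocyte genes (horizontal axis), in log2 CPM minus each gene's mean over mice, with 1 point per mouse coloured by donor group. The mean of other mature oligodendrocyte genes lies along a line, and that of upper layer genes falls from left to right. The means of the precursor and axon node lists stay near 0 over the whole horizontal range, although single genes of these lists do not all do so.

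Among 12556 genes outside the list with a mean of at least 5 CPM, 12 had an r above 0.9 with the mean over the 33 genes across the 32 mice, and the lowest r of any gene was -0.83. The closest that are named here were Sept4, a septin that lines the myelin sheath (0.951), Gatm, which makes the creatine precursor (0.944), Evi2a (0.918), Lpar1, a receptor for lysophosphatidic acid (0.915), Ttyh2 (0.912), Slc12a2, a chloride importer (0.911), Erbin (0.911), and Fgfr2, a fibroblast growth factor receptor (0.906). Of these, Fgfr2 passed in human against macaque (1.04, adjusted p = 0.0168). Exons of 13 of the 35 genes overlap exons of a gene on the opposite strand, among them Cnp, Ermn, Bcas1, Enpp2, Olig1, Cryab and Qdpr, and their counts carry the same uncertainty as that of Adamts4.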

How the data were processed

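Frontal cortex libraries were made by tag-based RNA sequencing (TagSeq, single reads) and deposited as 1 table of raw counts per Ensembl gene; the build is GRCm39, per the submitters' processing notes. No source used here names the aligner, the counting tool, the annotation or the use of strand. The table held 3 columns that match no sample used here and entered no step. Of its rows, 76 had no symbol and held 0.031% of counts.

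Counts were tested with edgeR 4.0.16 in R 4.3.3: filterByExpr by donor group (counts of at least 10, in total at least 15), TMM scaling (factors 0.955 to 1.04), and the quasi-likelihood test on all 32 mice with donor group as the only term. A second fit used the 6 batches. Benjamini-Hochberg adjustment ran over the 12651 genes, and the threshold was 0.05. Depth had a median of 1534710.5 counts, so 5 CPM are about 7.67 counts. Correlations and means used log2 CPM with a prior count of 2; they are descriptions without a test. An SE is the fold change divided by the root of the F statistic and is left out where p exceeds 0.99.

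The genes, classes and 15 lists were chosen with earlier results of these data known. Statistics are given for each gene past the threshold and otherwise for the 3 of highest mean CPM of a class, for up to 4 genes of smallest p from a list, and for the 10 genes of most similar pattern; some genes these rules take are not reported here. Other genes are named after their values were seen. Overlaps and copies of the last 300 bases (at least 100 bases at 95% identity) come from GENCODE M21, of another build than the counts. The test was tried on simulated counts. Alternatives were RLE factors, library totals, other filters, DESeq2 1.42.0, limma 3.58.1 voom with sample weights, each mouse or batch left out, counts summed per batch and, chosen after seeing the data, the 6 highest mice left out.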

Additional observations from a re-analysis of the deposited data

Results flagged for a closer look

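Within batches, the summed level of the 35 genes had a single mouse far from the others in 3 of 6 batches. In batch B human 12 stood at 12684 CPM and the next mouse at 3036. In batch D squirrel monkey 8 stood at 6597 CPM and the next at 2079. In batch F macaque 6 stood at 4463 CPM and the next at 2322. For single genes in the squirrel monkey group, the level of Olig2 in squirrel monkey 8 (15.5 CPM, next 10.6) stood apart by the same measure, which compares the gap to the nearest mouse with the whole range. Single genes were not screened in the human and macaque groups, so Olig2 is not singled out over all mice. In all, 4 of 42 groups of values were marked. The cut-off is set to mark about 5% of independent groups of normally distributed values. Most groups here were genes that vary together in the same 8 squirrel monkey mice, so the 5% does not apply to this count.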

How the results depend on the processing

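Under each alternative run, 0 of the 33 genes was called lower in human or squirrel monkey against macaque; without the 6 highest mice, 7 of the 33 fold changes of human against macaque were negative. The number higher in human against macaque was 8 with RLE factors, 8 without a filter, 10 with library totals and 9 without batch D. It was 5 with DESeq2, 1 with voom and sample weights, 5 without batch C, 0 without A, E or F, and 21 without B. It was 28 on counts summed per batch (35 of these genes among 15701 tested) and 1 without the 6 highest mice. Over all genes, DESeq2 called 1020 and the fit without the 6 mice 806 in this comparison. For the other alternative runs the share of all genes called was not recorded. Their counts, here and below, therefore cannot be set against it and are no added support for a group difference. Leaving out 1 mouse gave 2 to 21, with medians of the fold change from 0.65 to 1.07. Squirrel monkey against macaque had 0 genes, but 1 with voom, 17 on batch sums, and 0 to 1 with 1 mouse left out. The F-test had 1 gene, but 2 with library totals, 0 without batch A, C, E or F, 17 without B, 25 on batch sums, 0 without the 6 mice, and 0 to 9 with 1 mouse left out. Human against squirrel monkey had 0 throughout, and its median turned to -0.17 with voom. For these changes the cause was not tested. An added filter of 5 CPM in 8 mice removed none of the 12651 genes and so tests nothing. DESeq2 was not run for the F-test. No paired analysis was possible because the replicate numbers are in accession order only and pair no mice. Depth limits Gjb1, Nkx6-2, S1pr5, Fa2h, Gal3st1 and Myrf, whose lowest mice had 3 counts or fewer.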
